A study of Tupaia belangeri with 2 samples.

Results

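CBLN1 and C1QL3 are described here across the neuron groups of the embryonic tree shrew brain. The members were taken by gene name, and each name belonged to 1 gene model (evm.model.chr22.651 for CBLN1 and evm.model.chr2.165 for C1QL3), so they are 2 of the 23975 models counted. The data are single-cell transcriptomes from the entire brains of 2 tree shrew embryos (Tupaia belangeri) collected 4 to 5 weeks after conception, from which dura mater and vessels had been removed. Each embryo gave 1 library of 10x Chromium 3′ gene expression (v3). Both embryos were untreated, no genotype or sex was given in the labels, and the study collected them as the nonprimate side of a comparison with human and rhesus macaque cells, which were not analysed here. The embryos are therefore replicates of 1 group, and the comparisons below are between cell clusters.

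Both genes encode small secreted proteins with a globular domain like that of complement C1q. CBLN1 is the founding cerebellin: released by cerebellar granule cells, it bridges the membranes of parallel fibre synapses on Purkinje cells and holds them together. C1QL3 belongs to the C1q-like branch, is known from cortical and other forebrain projection neurons, and binds the adhesion receptor ADGRB3 (BAI3) on the partner neuron. Complement C1q itself (C1QA, C1QB and C1QC) is made by microglia and tags synapses for removal.

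After barcodes with fewer than 200 detected genes were left out, 17735 cells remained (8408 and 9327), with medians of 3539 and 3169 UMIs per cell, where a UMI is 1 counted RNA molecule. These cells held 951 and 1168 UMIs of CBLN1 and 279 and 379 of C1QL3. The libraries shared 18 cell barcodes. Haemoglobin transcripts took 22.5% of the UMIs of embryo 1 and 8.39% of those of embryo 2, and erythroid-like cells were 9.29% and 2.49% of cells. The cells fell into 17 clusters, made without either gene among the clustering genes, and 6 of them were neuronal. Cluster 7 was cortical glutamatergic neuron-like (NEUROD2, NEUROD6, TBR1, FEZF2), and C1QL3, though used for neither the clustering nor the name, was among its 10 leading genes. Cluster 1 was striatal GABA neuron-like (ISL1, FOXP1, MEIS2, SIX3), cluster 0 midbrain GABA neuron-like (GATA3, TFAP2B, PAX7, OTX2, LHX1, LHX5), and cluster 6 resembled nascent GABA neurons of the ganglionic eminence (DLX1, DLX2, DLX5, GAD2). Cluster 2 (POU4F2, BARHL2, EBF3, SHOX2, LHX9) and cluster 11 (ZIC1, ZIC2, ZIC4, ZIC5, TCF7L2, NEFM) kept no type name, the first because midbrain and thalamic markers tied and the second because its leading genes held as many thalamic as cerebellar granule neuron markers. Clusters 1, 2, 7 and 11 also passed a stricter rule on pan-neuronal genes, and clusters 0 and 6 entered as neurons by their names.

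CBLN1 was found in every neuron cluster, most in cluster 11 and least in cluster 0. Levels are UMIs of the gene per 1000000 UMIs of a cluster (CPM), given for embryo 1 and then embryo 2. CBLN1 was highest in the TCF7L2/ZIC cluster 11, at 136 and 126 CPM (131 ± 7.48, SD, n = 2). The striatal GABA neuron-like cluster 1 followed at 93.3 and 105 CPM, and both values of cluster 11 lay above these, although the Poisson intervals overlapped in embryo 2. Within cluster 1 the level was uneven. In the finer partition described below, the part that kept the striatal name held 37.2 and 34.2 CPM. Cluster 2 held 92.3 and 51.5 CPM, and it was the neuron cluster in which the embryos differed most for this gene (1.79-fold, with Poisson intervals that did not overlap). Cluster 6 had 57.2 and 54.0 CPM and the cortical cluster 7 had 36.6 and 49.3 CPM. The embryos' ranges were apart, but the 95% Poisson intervals of these clusters overlapped within each embryo. Midbrain GABA neuron-like cells of cluster 0 were the lowest neurons at 17.1 and 22.3 CPM, below cluster 7 in both embryos (2.15-fold and 2.21-fold). Cluster 11 exceeded cluster 0 by 7.99-fold in embryo 1 (95% interval 5.54 to 11.8) and by 5.64-fold in embryo 2 (4.24 to 7.50). Since cluster 1 was also the second largest cluster, it held 30.3% of all CBLN1 UMIs, cluster 2 held 21.2% and cluster 11 held 10.1%.

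C1QL3 had a different distribution, with 74.8% of its UMIs in 1 cluster. The cortical glutamatergic neuron-like cluster 7 contained 202 UMIs in embryo 1 and 290 in embryo 2, or 78.6 and 135 CPM (107 ± 39.8, SD, n = 2). The embryos differed by 1.72-fold there and their intervals did not overlap. The striatal GABA neuron-like cluster 1 was next at 16.1 and 15.4 CPM, and cluster 7 exceeded it by 4.87-fold (3.52 to 6.87) and 8.75-fold (6.54 to 11.9). Among the neuron clusters, these were the ones in which C1QL3 stood clearly above the rest. Cluster 2 held 3.63 and 1.86 CPM, cluster 6 held 0 and 3.60, cluster 11 held 2.31 and 0, and cluster 0 held 0.853 and 0.826, and the intervals of these neighbours overlapped in each embryo. The TCF7L2/ZIC cluster, which was the highest for CBLN1, thus contained 2 UMIs of C1QL3 in embryo 1 and none in embryo 2. With a limit of 3 counts put in place of that 0, cluster 7 of embryo 2 was 34.3-fold higher. The exact 95% interval of the ratio began at 27.7. Outside the neurons, the meningeal or mural-like cluster had 5.88 and 10.3 CPM, but from 2 and 3 UMIs, and its intervals overlapped those of cluster 1.

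**Figure D1:**
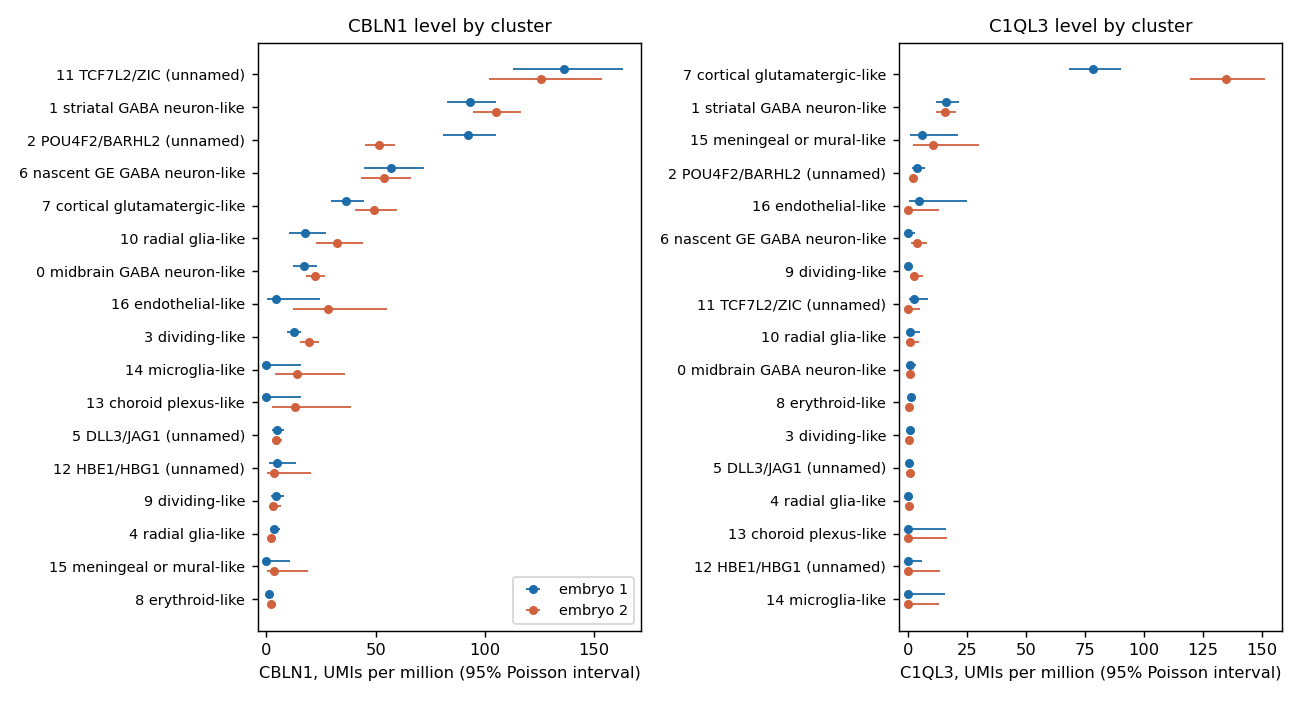
Level of CBLN1 (left) and C1QL3 (right) in CPM in each of the 17 clusters, sorted by the mean of the embryos. Points are embryos 1 and 2, bars are exact 95% Poisson intervals (counting error only), and GE stands for ganglionic eminence. CBLN1 falls gradually from 131 CPM in cluster 11 to 19.7 in cluster 0 among neurons, whereas C1QL3 stands at 107 CPM in cluster 7 and at 15.8 in cluster 1.

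Radial glia, the stem cells from which neurons and glia arise, served as the reference for neuronal expression. Clusters 3 and 9, named after dividing cells, were not part of this reference. Cluster 3, which also had radial glia markers (PAX6, FABP7, SLC1A3), held 12.4 and 19.3 CPM of CBLN1. These intervals overlapped those of neuron cluster 0 in both embryos. Cluster 9 held 4.44 and 3.12 CPM. Summed UMIs per cluster and embryo were compared with edgeR's quasi-likelihood test with embryo as a block, fitted over 10482 gene models with Benjamini-Hochberg adjustment over all of them. A group of clusters entered as the mean of its fitted log2 levels, so that clusters near 0 lower it. In clusters 1, 2, 7 and 11 CBLN1 was higher than in the radial glia-like clusters 4 and 10 by 3.07 ± 0.18 on the log2 scale (SE, adjusted p = 1.43e-28). The test was passed by 53.9% of all models (25.7% higher). With clusters 0 and 6 included the difference was 2.65 ± 0.18 (adjusted p = 4.00e-24), where 56.5% of models passed. The 2 radial glia-like clusters were unlike each other for CBLN1. Cluster 4 held 3.62 and 2.18 CPM, and cluster 10, whose leading genes included BCAN, VCAM1 and CLU, held 17.4 and 32.1 CPM, which was 4.81-fold (2.26 to 10.6) and 14.7-fold (6.50 to 39.1) more. The level of cluster 10 overlapped that of midbrain GABA neuron-like cells, and its mean of 24.8 CPM became 15.5 when the cells with the highest doublet scores were left out and 14.3 as a mean over cells. For C1QL3 the fitted difference was 4.15 ± 0.84 (adjusted p = 1.20e-05) and, with clusters 0 and 6, 3.25 ± 0.71 (adjusted p = 4.37e-05). The radial glia-like clusters held 1 UMI of C1QL3 in embryo 1 and 2 in embryo 2. C1QL3 could thus pass the count filter only through other clusters. Its direction was set beforehand, and the call is not a result about this gene. Counted directly, clusters 1, 2, 7 and 11 together had 138 times (24.6 to 5479) and 72.0 times (19.8 to 597) the level of radial glia-like cells. Of the 259 and 353 UMIs behind these ratios, 202 and 290 were in cluster 7. In clusters 0, 2, 6 and 11 the C1QL3 intervals overlapped those of radial glia-like cluster 10 (0.918 and 0.845 CPM) in both embryos. The ratios therefore do not describe every neuron cluster.

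Each neuron cluster was then set against the mean log2 level of the others in the same fit. With all 6 clusters, CBLN1 was higher in cluster 11 by 1.30 ± 0.16 on the log2 scale (adjusted p = 3.59e-10) and C1QL3 was not called there (-2.25 ± 0.89, adjusted p = 0.0870), with 11.8% of models called. In cluster 1 both genes stood above the log2 mean of the others, CBLN1 by 0.76 ± 0.12 (adjusted p = 3.97e-07) and C1QL3 by 1.98 ± 0.30 (adjusted p = 1.17e-07), where 16.8% of models were called and 11.4% were higher. For C1QL3 that log2 mean was lowered by clusters near 0. Its level in cluster 1 (15.8 CPM) was below that in cluster 7 (107 CPM). In cluster 7 C1QL3 rose by 5.61 ± 0.19 (adjusted p = 1.69e-44), while CBLN1 stood at -0.36 ± 0.16 (adjusted p = 0.0879), with 21.7% of models called. In cluster 0 both fell, CBLN1 by 1.86 ± 0.16 (adjusted p = 2.24e-17) and C1QL3 by 2.92 ± 0.66 (adjusted p = 2.80e-04), with 23.6% called. Neither gene passed in cluster 2 (10.3% called) or cluster 6 (17.4% called). With the 4 clusters of the stricter rule, C1QL3 was again higher in cluster 7 (5.03 ± 0.21, adjusted p = 9.63e-38) and CBLN1 lower there (-0.97 ± 0.16, adjusted p = 3.97e-07), where 21.5% of models were called. CBLN1 was higher in cluster 11 (0.88 ± 0.16, adjusted p = 2.27e-05) and C1QL3 lower (-3.71 ± 0.71, adjusted p = 5.01e-05), where 8.94% were called. In cluster 2 C1QL3 was lower (-2.32 ± 0.72, adjusted p = 0.0205) and CBLN1 was not called, beside 10.6% of models. In cluster 1 neither passed, CBLN1 with an adjusted p of 0.138 and C1QL3 with 0.05002, just above the threshold, beside 15.4% of models. Fitted values of C1QL3 in clusters 0, 2, 6 and 11 rest on 6, 17, 6 and 2 UMIs. The mean they were set against included clusters 7 and 1, where C1QL3 was highest. A lower C1QL3 is therefore not particular to any 1 of these clusters. C1QL3 could pass the count filter only through clusters other than these. The direction of its lower calls in clusters 0, 2 and 11 was thus set beforehand, and they are not results about this gene.

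Glutamate is the main excitatory transmitter of the brain and GABA the main inhibitory one, and the clusters were classed by their summed transporter and enzyme genes. Over whole clusters, the comparison of the glutamatergic clusters 7 and 11 with the GABAergic cluster 1 gave no stable answer for either member, and it passed the test for neither as fitted. Only part of the CBLN1 of cluster 1 came from cells with GAD1 or GAD2 UMIs and none of SLC17A6 (genes explained below). Such cells held 63 of its 266 CBLN1 UMIs in embryo 1 and 77 of 375 in embryo 2. CBLN1 differed by -0.25 ± 0.14 on the log2 scale (adjusted p = 0.305) and C1QL3 by -0.25 ± 0.50 (adjusted p = 0.839), where 13.9% of models were called. The glutamatergic side was the mean of the log2 levels of clusters 7 and 11. The values of C1QL3 behind that mean were 78.6 and 135 CPM in cluster 7 against 2.31 and 0 in cluster 11, on either side of the GABAergic cluster. The near-0 level of cluster 11 thus lowered the log2 mean, and the fitted value does not describe cluster 7. With at least 1000 genes per cell both were called lower in the glutamatergic clusters, CBLN1 at -1.20 (adjusted p = 7.05e-12) and C1QL3 at -2.72 (adjusted p = 7.35e-04), and with 30 principal components in the clustering so was CBLN1 (-0.88, adjusted p = 2.17e-06). When the GABA neuron-like clusters 0 and 6 were counted too, the direction turned for both genes. CBLN1 was then higher in the glutamatergic clusters by 0.74 ± 0.13 (adjusted p = 5.59e-06) and C1QL3 stood at 2.06 ± 0.87 (adjusted p = 0.0923), where 17.8% of models were called.

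Splitting the cells themselves gave a clearer picture for CBLN1. Cells with UMIs of SLC17A6, the vesicular glutamate transporter of subcortical and young neurons, and none of GAD1 or GAD2, the enzymes that make GABA, were compared with cells that had the reverse. Over the 6 neuron clusters, CBLN1 was at 127 CPM in 583 SLC17A6 cells and 36.6 CPM in 1979 GAD cells of embryo 1, and at 94.9 CPM in 741 and 32.8 CPM in 3477 cells of embryo 2. The SLC17A6 cells were 3.45-fold and 2.90-fold higher, with intervals that did not overlap in either embryo. They also held more UMIs per cell (medians of 3840 and 3675 against 2399 and 2255), which CPM takes into account.

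Of clusters 1, 2 and 7, which had at least 20 cells of both kinds in each embryo, the cluster named after striatal GABA neurons showed the widest gap. In cluster 1, 99 cells of embryo 1 and 95 of embryo 2 carried SLC17A6 and no GAD UMI, 9.57% and 7.42% of its cells, and CBLN1 reached 291 CPM (241 to 349) and 322 CPM (267 to 384) in them. The 599 and 885 GAD cells of the same cluster held 36.6 CPM (28.2 to 46.9) and 31.7 CPM (25.0 to 39.7), so that the ratio was 7.95 and 10.1. A CBLN1 UMI was seen in 35.4% and 42.1% of the SLC17A6 cells and in 8.18% and 6.21% of the GAD cells. In the 322 and 275 cells of cluster 1 with neither transmitter gene, CBLN1 was at 98.4 and 220 CPM. C1QL3 in cluster 1 was at 24.5 and 26.6 CPM in SLC17A6 cells and 13.4 and 9.07 in GAD cells, with overlapping intervals. In the mixed cluster 2 the split made no such difference, CBLN1 being at 107 and 50.8 CPM in SLC17A6 cells and 122 and 62.6 CPM in GAD cells. In cluster 7, CBLN1 was at 25.0 and 46.6 CPM in SLC17A6 cells and at 33.1 and 18.8 CPM in GAD cells, with overlapping intervals. Without cluster 1, the SLC17A6 cells stood 2.51-fold and 1.79-fold above the GAD cells, but most of the former were in clusters 2, 7 and 11 and most of the latter in clusters 0 and 6. These groups were formed after the levels had been seen, and the counts were not tested.

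**Figure D2:**
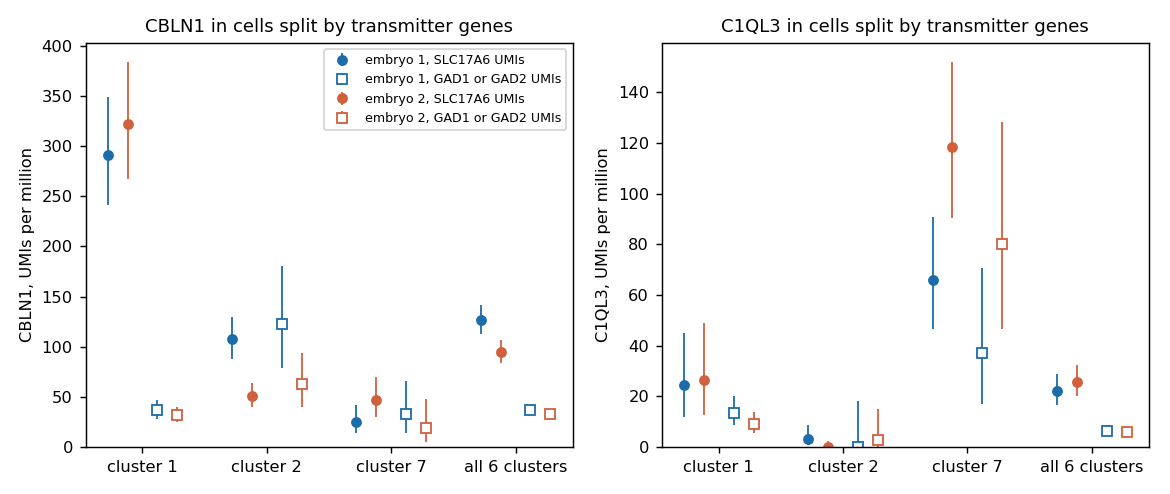
CBLN1 (left) and C1QL3 (right) in CPM in cells with SLC17A6 but no GAD1 or GAD2 UMIs (filled circles) and in cells with GAD1 or GAD2 but no SLC17A6 UMIs (open squares), in clusters 1, 2 and 7 and in all 6 neuron clusters, per embryo with exact 95% Poisson intervals. In cluster 1 the SLC17A6 cells reach 291 and 322 CPM of CBLN1, against 36.6 and 31.7 in the GAD cells. For C1QL3 the intervals of the cell groups overlap within each of clusters 1, 2 and 7.

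C1QL3 over the same 6 clusters was at 22.02 and 25.5 CPM in SLC17A6 cells and at 6.23 and 5.73 CPM in GAD cells. Without the cortical cluster these values were 8.33 and 4.41 against 4.75 and 3.88 CPM, with intervals that overlapped, so that the difference rested on cluster 7. Within cluster 7, where 66.6% and 64.2% of cells had UMIs of neither SLC17A6 nor a GAD gene, these cells held 87.0 and 153 CPM of C1QL3. Cells with SLC17A6 held 66.0 and 118 CPM and the 43 and 42 cells with GAD UMIs held 37.3 and 80.1 CPM.

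A finer partition into 23 clusters (f0 to f22, at a resolution of 1.0 in place of 0.5) divided clusters 1, 6 and 7. Of the 2315 cells of cluster 1, 976 fell into f6, which was led by SCN9A, SST and PCP4 and lost the striatal name because its leading genes held more markers of forebrain interneurons, and most others into f5, led by ISL1, CHGB and SIX3. The 42.2% of cells in f6 held 83.5% of the CBLN1 UMIs of cluster 1 and 91 of its 107 cells with 2 or more. Over all its cells, f6 had 129 and 165 CPM of CBLN1 and f5 had 37.2 and 34.2 CPM. C1QL3 was at 20.6 and 20.1 CPM in f6 and 8.66 and 9.28 in f5, with intervals that overlapped slightly in both embryos. MAPT, the axonal microtubule protein tau, was at 399 and 373 CPM in f6 and at 134 and 98.1 CPM in f5.

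Cortical cells were split in the same way. The part of cluster 7 that fell into f10, led by NEUROD6, C1QL3 itself, TBR1 and SLC17A7 (named VGLU1), contained 490 of the 492 C1QL3 UMIs of cluster 7, at 101 and 177 CPM. The 277 cells of cluster 7 that fell into f13 held 0 and 3.90 CPM (0 and 2 UMIs). The f13 cells, which came from clusters 6 and 7 and were led by EOMES, the marker of intermediate progenitors, and DLX1, had 1306 and 1573 CPM of summed pan-neuronal genes against 3803 and 3988 in f10. CBLN1 in these parts of cluster 7 was at 43.1 and 58.3 CPM in f10 and 12.5 and 13.6 CPM in f13. In the ganglionic eminence lineage, CBLN1 was at 78.4 and 71.7 CPM in the cells of cluster 6 that fell into f8 and at 7.54 and 12.8 CPM in those that fell into f13. Within clusters 7 and 6, CBLN1 was thus lower in the cells of the EOMES and DLX cluster than in the rest described, and so was C1QL3 within cluster 7. Pan-neuronal level alone did not order the clusters, since the midbrain GABA neuron-like f2 had 3374 and 3285 CPM of these genes and 20.2 and 26.2 CPM of CBLN1. Cluster f22, 44 cells of cluster 2 led by LAMP5 and ROBO3, gave 167 and 53.9 CPM of CBLN1 from 19 and 5 UMIs. Of cluster 11, 93.0% of cells stayed together as f14, with 135 and 139 CPM, where f6 reached 129 and 165 CPM with overlapping intervals, so that neither led in both embryos. At this resolution it did meet the rule for the name cerebellar granule neuron.

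**Figure D3:**
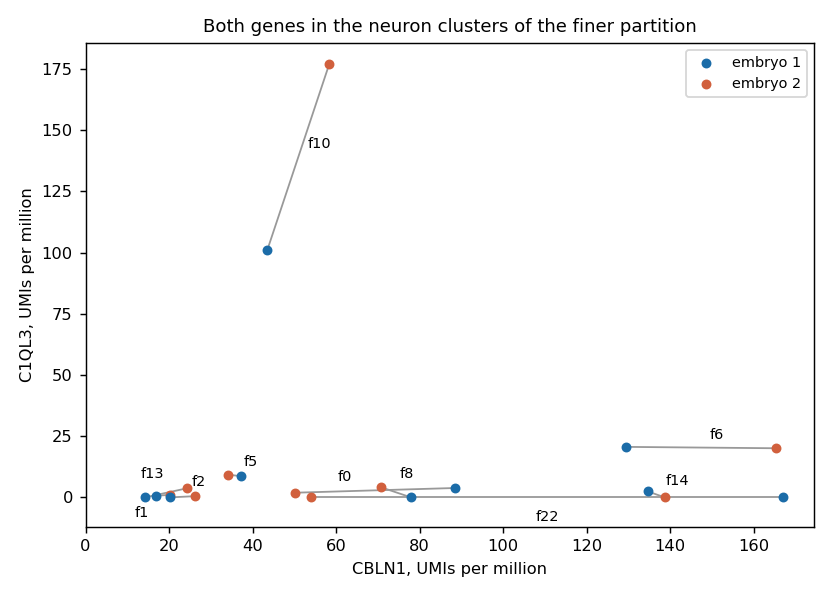
C1QL3 against CBLN1 in CPM in the neuron clusters of the finer partition, labelled f with their number. Each cluster is 2 points, embryos 1 and 2, joined by a line. Cortical f10 is alone in having over 100 CPM of C1QL3, f6 has 129 and 165 CPM of CBLN1 with 20.6 and 20.1 of C1QL3, and f14 has 135 and 139 CPM of CBLN1 with 2.47 and 0 of C1QL3.

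Both genes were sparse per cell. A CBLN1 UMI was seen in 7.17% and 7.43% of all cells and a C1QL3 UMI in 1.80% and 2.05%. Clusters differed in depth, so each cell was also thinned to 2000 UMIs, which left out between 20 and 891 cells per neuron cluster and embryo. CBLN1 was then detected in 21.1% (15.9 to 27.2, exact 95% interval) and 19.3% (13.9 to 25.6) of cluster 11 cells, against 28.2% and 29.0% as sequenced. It was detected in 12.2% and 8.59% of cluster 2, 9.70% and 10.5% of cluster 1, 8.12% and 5.71% of cluster 6, 6.59% and 5.06% of cluster 7 and 2.94% and 4.39% of cluster 0. In embryo 1 the share was larger in cluster 2 than in cluster 1 at nearly the same CPM, but the intervals overlapped (9.75 to 15.1 and 7.50 to 12.3). In cluster 1, 73.5% of CBLN1 UMIs came from cells with 2 or more, up to 16 in a cell. That share was 60.8% in cluster 11, 52.2% in cluster 2 and 45.5% in cluster 7, with up to 7, 12 and 13 in a cell. In clusters 0 and 6 it was 10.1% and 27.5%, and the highest count was 4. C1QL3 was detected in 11.2% (8.65 to 14.3) and 17.8% (14.5 to 21.5) of thinned cluster 7 cells, in 1.91% and 1.77% of cluster 1 cells and in at most 0.469% of the cells of any other neuron cluster. In cluster 7, 122 of the 239 cells with a C1QL3 UMI had 2 or more.

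**Figure D4:**
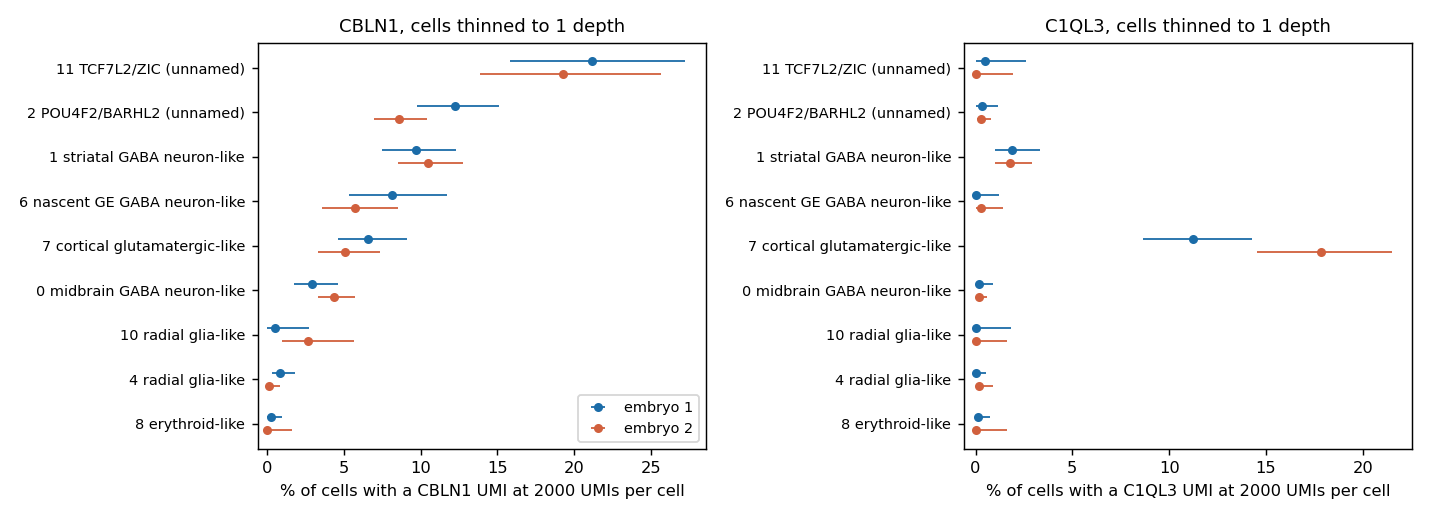
Percent of cells with a UMI of CBLN1 (left) or C1QL3 (right) after each cell was thinned to 2000 UMIs, with exact 95% binomial intervals, for embryos 1 and 2 in the 6 neuron clusters, the radial glia-like clusters and erythroid-like cells. CBLN1 reaches 21.1% and 19.3% in cluster 11. C1QL3 reaches 11.2% and 17.8% in cluster 7 and stays under 2% in the other clusters drawn.

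Free RNA from broken cells adds UMIs to cells that do not express a gene, and erythroid-like cells were used to gauge it. CBLN1 was found in 1.28% and 1.72% of them and C1QL3 in 0.768% and 0.431%, at medians of 12416 and 14345 UMIs per cell, of which 88.3% and 87.8% were haemoglobin. Per 1000000 other UMIs this was 10.2 (5.10 to 18.3) and 18.0 (7.23 to 37.0) for CBLN1 and 8.36 (3.82 to 15.9) and 2.57 (0.0650 to 14.3) for C1QL3. These UMIs were unevenly spread. In the finer partition, the 284 erythroid-like cells of f17 held 9 and 7 UMIs of CBLN1 and 8 and 1 of C1QL3. The 728 cells of f12 held 2 and 0 of CBLN1 and 1 and 0 of C1QL3. Summed pan-neuronal genes were at 485.5 and 745.8 CPM in f17 and at 28.2 and 20.7 CPM in f12. Whether the UMIs of f17 were free RNA or came from mixed barcodes was not tested. Microglia-like cells had 0 and 4 UMIs of CBLN1 and none of C1QL3. The C1QL3 levels of clusters 0, 2, 6 and 11 lay at or below the upper end of the erythroid-like ranges. Those ranges are per UMI other than haemoglobin and cluster levels per all UMIs, so the comparison does not settle whether these levels are background. Radial glia-like cluster 4 held 3.62 and 2.18 CPM of CBLN1, below the erythroid-like ranges, and 0 and 0.311 CPM of C1QL3. The C1QL3 interval of cluster 2 lay above that of cluster 4 in embryo 1 (1.66 to 6.89 against 0 to 1.03) and overlapped it in embryo 2. The CBLN1 levels of cluster 0 and of radial glia-like cluster 10 lay within the range of erythroid-like cells as well, although at 2000 UMIs more cells of cluster 0 had a UMI than those of radial glia-like cluster 4 (0.843% and 0.158%). CBLN1 in the other 5 neuron clusters and C1QL3 in cluster 7 lay above the upper ends of the erythroid-like ranges in both embryos. C1QL3 in cluster 1 (16.1 and 15.4 CPM) did so narrowly.

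Few cells showed both members. There were 603 and 693 cells with CBLN1 and 151 and 191 with C1QL3. Of these, 24 and 30 had both genes, and most cells with both were in clusters 7 and 1. In cluster 7, C1QL3 was seen in 24.1% (15.1 to 35.0) of CBLN1 cells and 17.8% (14.5 to 21.5) of the others in embryo 1, and in 32.7% (20.7 to 46.7) and 25.2% (21.3 to 29.4) in embryo 2. After thinning, these shares were 17.6% against 10.8% in embryo 1 and 8% against 18.3% in embryo 2, and the intervals overlapped. In cluster 1 the shares were 4.03% against 2.31% and 4.58% against 2.31% as sequenced. Within these clusters, no difference in C1QL3 detection between cells with and without CBLN1 was detectable at this depth. In cluster 11, none of the 67 and 60 CBLN1 cells had C1QL3, with exact 95% intervals that reached 5.36% and 5.96%. Only 1 cell of that cluster had a C1QL3 UMI in embryo 1 and none in embryo 2. The lack of cells with both there thus says nothing about how the genes relate.

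Other genes of the family were scarce. Of the 8 cerebellins and C1q-like genes listed, 7 were named in the annotation and 3 had enough counts to be tested. CBLN2, which also binds neurexins, totalled 126 UMIs and was highest in cluster 11 like CBLN1, at 13.9 and 6.55 CPM from 12 and 5 UMIs. Cluster 2 was at 5.64 and 6.06 CPM, with intervals that overlapped those of cluster 11 in each embryo. CBLN2 was higher in the 6 neuron clusters than in radial glia-like cells (3.86 on the log2 scale, adjusted p = 6.24e-06) and in cluster 11 than in the other neurons (1.65, adjusted p = 0.0211). CBLN4, C1QL1, C1QL2 and C1QL4 totalled 27, 45, 25 and 13 UMIs and were too low to test. All 3 tested family genes were higher in the 6 neuron clusters, where 26.9% of all models were. In radial glia-like cluster 4, CBLN2 held 0 and 0 UMIs and C1QL3 held 0 and 1, and in cluster 10 each held 1 and 1. These 2 genes could thus pass the count filter only through other clusters, and the shared direction is not a result about the family. C1QB, the complement subunit named in the annotation, was at 2221 and 2785 CPM in microglia-like cells, where neither member exceeded 14.1 CPM, and at no more than 2.52 CPM in any neuron cluster.

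Of the presynaptic neurexins, which cerebellins bind, NRXN2 was widespread and highest in cluster 1, at 101 and 87.1 CPM (0.51 on the log2 scale against the other neurons, adjusted p = 6.26e-05). It was at 65.9 and 66.8 CPM in cluster 11 and at 49.8 and 36.7 CPM in cluster 7, where it was lower than in the other neurons (-0.46, adjusted p = 0.00419). NRXN3 had an arrangement of its own, at 27.7 and 26.2 CPM in cluster 0 and 30.2 and 33.6 CPM in cluster 6 but 0.389 and 0.465 CPM in cluster 7 (-3.77 on the log2 scale, adjusted p = 4.64e-05). It was lower in glutamatergic than in GABAergic clusters by 4.67 (-4.67, adjusted p = 2.89e-17). The glutamatergic clusters held 1 and 1 UMIs of NRXN3 (cluster 7) and 0 and 2 (cluster 11). NRXN3 could thus pass the count filter only through other clusters, and this direction was set beforehand. DCC, listed among the partners, was not named in the annotation.

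The receptors described here did not share the pattern of either ligand. ADGRB3, the receptor for C1QL3, had 2 gene models, whose summed level was highest in cluster 1 at 33.7 and 30.3 CPM. Models were tested singly, and the difference there was 0.97 for 1 model (adjusted p = 2.16e-06). The summed level was at 27.7 and 19.7 CPM in cluster 11, with intervals that overlapped those of cluster 1, and at 9.73 and 10.7 CPM in cluster 7. ADGRB1 was concentrated in midbrain GABA neuron-like cells, at 22.2 and 22.3 CPM (3.14, adjusted p = 1.13e-19). GRID1, a delta-type receptor, was highest in radial glia-like cluster 10, at 10.1 and 5.92 CPM from 11 and 7 UMIs. GRID1 was higher in cluster 1, with 14 UMIs in each embryo, than the log2 mean of the other neurons (2.08, adjusted p = 0.00879). That mean was lowered by cluster 11, so 2.08 is not the difference from each other cluster. Cluster 11, which had the most CBLN1, held no UMI of GRID1. Its limits of 3 counts were 3.47 and 3.93 CPM, above the GRID1 levels of clusters 0, 2, 6 and 7 (at most 2.45), so absence was not shown. In cluster 11 NETO2, an auxiliary subunit of kainate receptors, was lower (-0.87, adjusted p = 1.17e-09). Set against radial glia-like cells, NETO2 was higher in the 6 neuron clusters (0.87, adjusted p = 7.33e-21), and GRID1 (-1.54, adjusted p = 0.0193) and ADGRB2 (-1.001, adjusted p = 3.00e-09) were lower. Both were highest in cluster 10 (means of 8.01 and 37.8 CPM). In radial glia-like cluster 4, GRID1 had a mean of 1.34 CPM, below those of neuron clusters 0, 1, 2, 6 and 7 (1.53 to 4.42). ADGRB2 there had a mean of 21.3 CPM, below clusters 1 (22.5) and 6 (24.3) and above clusters 0 (11.1) and 2 (16.9). The lower calls thus do not describe cluster 4.

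**Figure D5:**
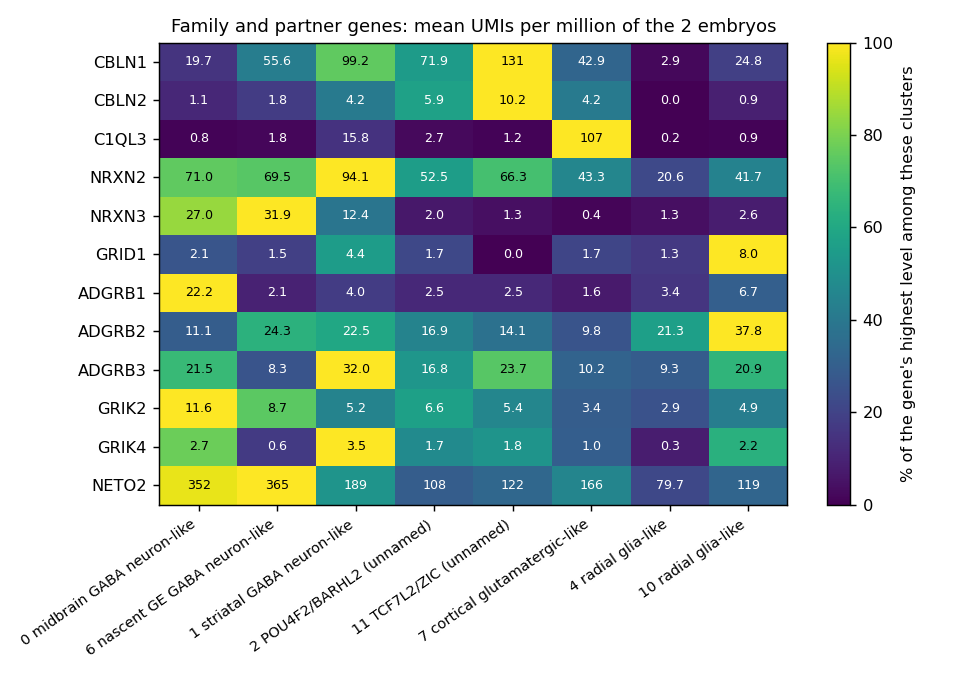
Mean level of the 2 embryos in CPM (printed values) for cerebellins, C1QL3, neurexins and postsynaptic receptors in 6 neuron clusters and both radial glia-like clusters. Colour is the percent of each gene's own highest level among these clusters, so that colours compare clusters within a gene and not genes with each other. The highest CBLN1 is in cluster 11, the highest C1QL3 in cluster 7 and the highest GRID1 in cluster 10.

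Other synapse organisers gave the backdrop. Of 49 listed genes (neuroligins, teneurins, SLITRKs, latrophilins and others), 34 were named in the annotation and 31 models were tested. Against radial glia-like cells, 14 were higher in the 6 neuron clusters and 7 lower, where 26.9% of all models were higher and 29.6% lower. Against the other neurons, 13 were higher and none lower in cluster 1, 3 higher and 5 lower in cluster 7, and 3 higher and 1 lower in cluster 11. Of all models, 11.4% were higher and 5.4% lower in cluster 1, 13.2% and 8.42% in cluster 7, and 6.01% and 5.76% in cluster 11. In cluster 7 SLITRK2 was higher by 2.91 on the log2 scale and SPARCL1 by 1.36, and TENM2 was lower by 2.13 (-2.13). In cluster 11 the genes that rose were TENM1 (2 models, 2.72 and 1.97) and CADM1 (0.50). The median differences over the list were 0.43 in cluster 1, -0.10 in cluster 7 and 0.32 in cluster 11, where the medians over all models were 0.05, 0.01 and -0.08.

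Genes with a similar pattern were ranked by the Pearson correlation of mean log2(CPM + 1) across clusters. Over the 4 stricter neuron clusters the ranking had little content, since 471 of 5287 models correlated with CBLN1 at 0.95 or more and 110 with C1QL3. IQCE, MDH1, MIA3, TCEB3 and HERC2 led for CBLN1 and CPSF1, PAPOA, WAPL, PARP1 and PINX1 for C1QL3. Across all 17 clusters and 8084 models, the genes most like CBLN1 were REEP1 (r = 0.958), an axonal endoplasmic reticulum protein, CHL1 (0.929), a neural adhesion molecule, an unnamed model (evm.model.chr9.219), CRMP1 (0.928), which takes part in axon guidance, and a protocadherin model (PCDAA, 0.927). For C1QL3 they were the unnamed evm.model.chr6.12 (0.835), PDE1A (0.787), TBR1 (0.786), ISLR2 (0.765) and the unnamed evm.model.chr1.1620 (0.715). TBR1, a transcription factor of deep-layer cortical neurons, was also one of the marker genes of cluster 7. The members correlated with each other at 0.41 over the 17 clusters and at -0.79 over 4. These are descriptions over clusters that share libraries and depth, and not tests.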

How the data were processed

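The authors sequenced a 10x Chromium 3′ library for each embryo, checked reads with fastp, ran Cell Ranger 3.1.0 against the TS_2.0 assembly, and deposited raw UMI counts per gene model and barcode. The 9241 and 9685 barcodes deposited equal the cell numbers in the methods. The tables held 41868023 and 38077767 UMIs. Members and gene lists were chosen with earlier results of these data known. Synonyms used by the annotation for 13 genes were added after the tables had been opened.

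Barcodes with at least 200 genes were kept. Scrublet called 0 and 1 doublets and was taken not to have worked, so none were removed, and the 566 and 696 highest scores were left out as an alternative. After scaling to 10000 UMIs, 2000 variable genes (none of the 74 listed synapse genes) gave 20 principal components, and a 20-neighbour graph was divided by leidenalg (0.10.2, resolution 0.5). A cluster took a type's name from at least 3 markers, each in 10% of its cells and 2 times higher than elsewhere, and stayed unnamed on a tie. The clause for ties among the 10 leading genes followed the first look at the clusters, as did the counting of named neuron clusters, the transmitter split and the description within finer clusters. A cluster was neuronal by the stricter rule if at least 3 pan-neuronal markers were each in 50% of its cells, and glutamatergic or GABAergic if 1 summed transmitter level was 2 times the other. Named genes were the members, the listed genes, and the 5 models most correlated with each member among those with 100 UMIs per embryo. Further genes were named after their values were seen.

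UMIs summed per cluster and embryo (all 17 clusters) went into edgeR (4.0.16, R 4.3.3; common BCV 0.0638) (TMM, filterByExpr, quasi-likelihood F test, embryo as block, threshold 0.05). Every cluster of an embryo comes from 1 library, which is where the pairing comes from. TMM factors of neuron and radial glia-like clusters were 1.09 to 1.45. Both embryos are separate samples. The spread behind the p-values was estimated in 1 fit over the 17 clusters of these 2 libraries, so it is not the spread between embryos alone. In cluster 7 against the other clusters of the stricter rule, C1QL3 had an SE of 0.21 around 5.03, while single embryos gave 4.09 and 6.12. On simulated counts, 96.0% of 4-fold changes were recovered between glutamatergic and GABAergic clusters (9427 models) with 4.95% false calls, and 99.5% against radial glia-like clusters (9406 models) with 2.94%. The simulation gave each model 1 mean over all clusters, the fitted dispersions and no difference between embryos. These rates therefore do not extend to genes near 0 in whole groups, such as C1QL3. Poisson and binomial intervals are exact at 95% and, like the limit of 3 counts at 0, cover counting error only. Alternatives were other size factors, no filter, no block, DESeq2 1.42.0, each embryo alone, 1000 genes per cell, a resolution of 1.0, 30 components, and leaving out cells with high Scrublet scores or at least 1% haemoglobin. Some listed genes are not reported here.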

Additional observations from a re-analysis of the deposited data

How the results depend on the processing

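The higher CBLN1 in neurons than in radial glia-like cells was called under all 11 other settings tested (2.65 to 4.00 on the log2 scale), as were C1QL3 in cluster 7 (4.97 to 5.61) and CBLN1 in cluster 11 (0.85 to 1.30) under all 7. C1QL3 against radial glia-like cells lost its call with at least 1000 genes per cell (3.96) and at a resolution of 1.0 (3.26, adjusted p = 1 in both, with an SE of 4264 or more). The glutamatergic against GABAergic difference depended on which clusters entered. CBLN1 was at -1.20 with at least 1000 genes, -0.88 with 30 components and -1.50 when high Scrublet scores were left out and cells clustered anew, all called, but at 0.74 with named neuron clusters and 0.70 with the larger transmitter sum as well. C1QL3 was at -2.72 (adjusted p = 7.35e-04) with at least 1000 genes, and turned to 2.06 and 1.31 with those added rules, to 2.61 at a resolution of 1.0, none of them called, and to 3.11 when clustered anew, which was called (adjusted p = 3.61e-33). The cause was not tested. Genes called there numbered 1460, and 744 without the replicate block, 701 at a resolution of 1.0 and 2622 when clustered anew. Without the block C1QL3 in cluster 2 was at -2.26 (adjusted p = 0.0878), and no other call on the members changed. In cluster 1, CBLN1 was called with no filter (0.32), without high Scrublet scores (0.36) and with named neuron clusters (0.76), and C1QL3 with other size factors (1.02), no filter (1.03), without high Scrublet scores (1.19) and with named neuron clusters (1.98). Named neuron clusters moved CBLN1 in cluster 2 to 0.33 and in cluster 7 to -0.36, and C1QL3 in cluster 2 to -1.001 and in cluster 11 to -2.25, none called. With 1 embryo alone, with no test, CBLN1 in cluster 2 ranged from -0.67 (embryo 2) to 0.28 (embryo 1). In the order CBLN1 and then C1QL3, such ranges were -0.27 to -0.21 and -1.13 to -0.01 for glutamatergic against GABAergic clusters, 2.98 to 3.21 and 2.81 to 4.21 against radial glia-like clusters, 0.10 to 0.47 and 0.65 to 1.65 in cluster 1, -1.27 to -0.66 and 4.09 to 6.12 in cluster 7, and 0.86 to 0.89 and -5.83 to -2.82 in cluster 11, and for C1QL3 in cluster 2 -1.95 to -1.91. Counts of under 10 UMIs limit C1QL3 outside clusters 1 and 7. Settings named by clusters, transmitter sums or new clustering were chosen after seeing the data.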
